A study of Homo sapiens with 6 samples.

Results

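The genes described here are 6 keratins of A549 cells, KRT7, KRT8, KRT18, KRT19, KRT80 and KRT81. They were chosen by symbol and are 6 of the 29122 genes in the deposited table of read counts. A549 is a human lung carcinoma epithelial line, spelled A649 in the source names. BCLAF1-depleted cells carried a stably transduced lentiviral short hairpin RNA against BCLAF1, which codes for a nuclear factor with roles in transcription and splicing. That is how the protocol describes them, whereas the sample titles read siBCLAF1. Controls carried an irrelevant hairpin directed at luciferase of the firefly, which has no target in human cells. Polyadenylated RNA was sequenced from 3 BCLAF1-depleted and 3 control libraries, and the comparison asks how lowering BCLAF1 goes with transcript levels.

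Keratins are the intermediate filament proteins of epithelial cells. Type I (acidic) and type II (basic) keratins pair as obligate heterodimers, so each filament needs a partner of both kinds. KRT8 (type II) and KRT18 (type I) are the first pair of simple epithelia, such as those lining the lung and gut, and give these cells resistance to mechanical and apoptotic stress. KRT7 (type II) and KRT19 (type I) join them in glandular and ductal epithelia. KRT80 is a type II keratin found near desmosomes, the junctions that anchor keratin filaments, and KRT81 is a type II keratin best known from the hair cortex.

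The shared ancestry of the members, and a limit on how far their reads can be told apart, can be read from their coding sequences. The lines below show how the type I members differ over 60 coding bases that end inside the helix termination motif, a highly conserved stretch at the end of the keratin rod. They were read from GENCODE release 29 transcripts (GRCh38, coding strand, 5′ to 3′). Capitals mark bases of KRT19 that differ from KRT18.
KRT18: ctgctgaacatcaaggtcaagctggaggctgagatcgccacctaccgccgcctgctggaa
KRT19: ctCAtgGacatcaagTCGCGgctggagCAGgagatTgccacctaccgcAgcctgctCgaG
In this stretch KRT19 differed from KRT18 at 15 bases. Over whole aligned coding sequences the identity with KRT8 was 72.9% for KRT7, 65% for KRT81 and 62.8% for KRT80, and that of KRT18 with KRT19 was 62.7%. No 100-base window of coding sequence was shared between any members of the same type.

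KRT81 has near copies outside the members, the hair keratin genes KRT86 and KRT83 on chromosome 12. The whole coding sequence of KRT86 was 93.6% identical to that of KRT81, and 37.9% of the 100-base windows of KRT81 recur in it unchanged. KRT83 was 93.3% identical to KRT81 but shared no such window. Of the 1353 windows of KRT8, 120 (8.87%) recur in annotated transcripts of KRT8 pseudogenes. No window of KRT18 or KRT19 recurs in a pseudogene of its own name, and KRT7, KRT81 and KRT80 have no such annotated transcripts. Only exact matches of coding windows were sought, so this search does not clear the counts of KRT18, which has 71 annotated pseudogene transcripts. The sources used here do not say how reads that fit more than 1 place were counted, so at least KRT81 and in part KRT8 counts are uncertain.

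All members but KRT19 lie on chromosome 12 in GRCh38. KRT8 (ENSG00000170421.10, 52897187 to 52949954, minus strand) and KRT18 (ENSG00000111057.9, 52948871 to 52952901, plus strand) are transcribed away from each other, and their annotated spans overlap by 1084 bases at the 5′ ends. KRT80 (ENSG00000167767.12, 52168996 to 52192000, minus strand), KRT7 (ENSG00000135480.13, 52232520 to 52252186, plus strand) and KRT81 (ENSG00000205426.9, 52285913 to 52291534, minus strand) lie in the same cluster. KRT19 (ENSG00000171345.12) lies on chromosome 17 from 41523617 to 41528308 on the minus strand. The span of KRT81 lies wholly within that of KRT86 on the other strand. The sources used here do not say if counting was stranded. KRT86 had 160, 192 and 156 counts in BCLAF1-depleted replicates 1 to 3, against 158, 150 and 270 in control replicates 1 to 3, while KRT81 had 28056 or more in every library. KRT86 also overlaps the span of KRT7 by 2887 bases on the same strand, which stranded counting would not separate. KRT7 had 85435 or more counts in every library, and the part of this overlap in either count was not tested. On the other strand, KRT87P overlaps KRT7 by 1721 bases, and the antisense gene within KRT7 (KRT7-AS) had at most 12 counts in any library.

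Library totals ranged from 33409158 to 40820922 counts in BCLAF1-depleted cells and from 41019185 to 43928927 in controls. Levels are given as CPM, counts scaled to library size by TMM, and 3 counts, the floor set by counting error alone, equal 0.0683 to 0.0898 CPM before that scaling. In BCLAF1-depleted replicates 1 to 3 BCLAF1 itself stood at 39.0, 35.7 and 53.1 CPM, against 211, 199 and 203 CPM in control replicates 1 to 3. Mitochondrially encoded transcripts took 11.4, 10.5 and 19.3% of counts in BCLAF1-depleted replicates 1 to 3, against 10.7 to 11.1% in controls. Nothing in the labels says that replicates were separate cultures, so the p-values reflect only the variation among these 6 libraries, possibly technical. The epithelial label was checked on EPCAM, KRT8, KRT18, CDH1 and MUC1, all of which were above 1 CPM in every library. Of leukocyte markers, 4 of 5 genes were in the table and each stayed under 1 CPM. The 6 fibroblast markers summed to 14.8 to 16.8 CPM in BCLAF1-depleted libraries and 22.7 to 25.4 CPM in controls, mostly COL1A1, and 3 of them stayed under 1 CPM. The 4 endothelial markers summed to 2.16 to 2.85 CPM in BCLAF1-depleted libraries and 1.76 to 2.33 CPM in controls, with CDH5 at most 2.11 CPM and 2 under 1 CPM. No marker was at 0 in all libraries, and the part of these lists in the results was not tested.

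KRT8 and KRT18 were among the most abundant transcripts of the cells. Together they took 3.36, 3.66 and 2.56% of all counts in BCLAF1-depleted replicates 1 to 3, against 3.43, 3.41 and 3.30% in control replicates 1 to 3, each with an exact 95% binomial interval of at most ± 0.0061 percentage points for counting error only. By FPKM, which divides by gene length, KRT18 ranked 7, 8 and 12 among all genes in BCLAF1-depleted replicates 1 to 3, against 5, 6 and 6 in control replicates 1 to 3. KRT8 ranked 9, 10 and 15 in BCLAF1-depleted replicates, against 7 in each control. The replicate with the lowest share and the lowest ranks was BCLAF1-depleted replicate 3, which also held the largest mitochondrial share. The part of that share in these ranks was not tested. The 6 members held 99.39 to 99.46% of all keratin counts in BCLAF1-depleted libraries and 99.58 to 99.61% in controls.

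The order of the members by FPKM was the same in both groups. In BCLAF1-depleted cells KRT18 averaged 7155 ± 970 FPKM, KRT8 5754 ± 1127, KRT7 1201 ± 120, KRT81 384 ± 28.6, KRT80 9.20 ± 2.80 and KRT19 0.337 ± 0.0874 (SD, n = 3). In control cells the same genes averaged 7279 ± 108, 6942 ± 314, 1265 ± 57.7, 404 ± 77.9, 13.4 ± 0.555 and 0.193 ± 0.0404 FPKM (SD, n = 3). By FPKM, KRT18 exceeded KRT8 within each of the 6 libraries. The ranges of these neighbours overlapped in BCLAF1-depleted cells and did not in controls. All other neighbours in the order were apart, the widest step being KRT81 over KRT80 (41.8-fold) in BCLAF1-depleted cells and KRT80 over KRT19 (69.3-fold) in controls. In CPM, which does not divide by length, KRT8 averaged above KRT18 in controls (16030 against 15146 CPM). In BCLAF1-depleted cells it averaged below KRT18 (16145 against 18245 CPM).

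**Figure D1:**
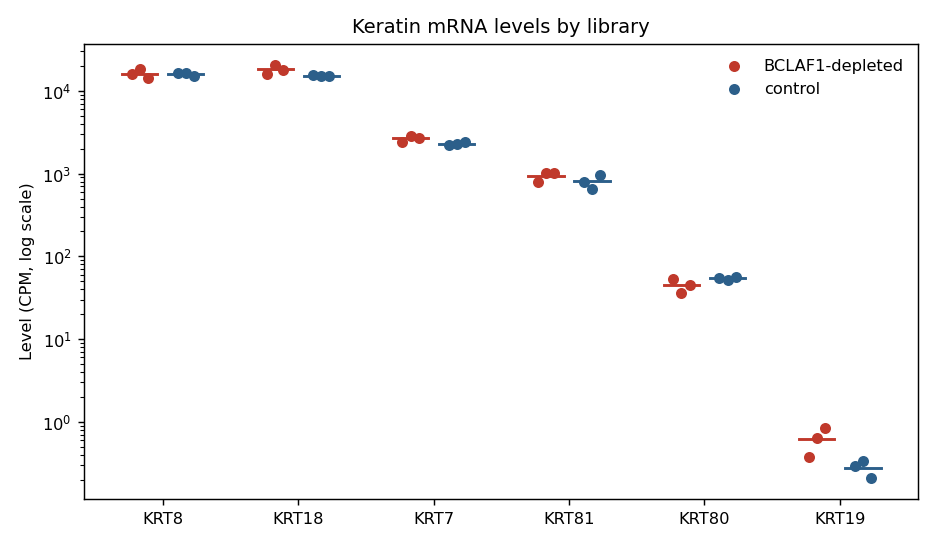
Level of each keratin in CPM (log axis) by library, with BCLAF1-depleted libraries in red and control libraries in blue. Points are libraries and bars are group means (n = 3). KRT8 and KRT18 lie at 14372 CPM or higher in every library, and KRT19 stays under 1 CPM.

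Lowering BCLAF1 went with little measured change in the abundant keratins. Only KRT19, the scarcest member, passed the test, so 1 of 6 members was called, where 35.8% of the 15907 tested genes were called (17.8% higher and 18.0% lower). All 6 members passed the filter on low counts, and KRT19 did so through all 3 BCLAF1-depleted libraries and 2 of the 3 controls. Among the 5 members that reached the filter in every control, 0 were called. The test was edgeR's quasi-likelihood test with Benjamini-Hochberg adjustment over all tested genes, and each log2 fold change (BCLAF1-depleted over control) is given ± its SE. The median log2 fold change over all tested genes was 0.02, and the median of its absolute value 0.39. With library totals as the only scaling, 1283 genes were higher and 3662 lower, against 2827 and 2870 with TMM, and the median of all genes moved to -0.21. Without any 1 control library, 1383 to 1519 genes were higher and 1549 to 1669 lower. In bulk RNA, fewer cells that express a gene and less of its RNA per cell cannot be told apart.

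KRT8 had 15829, 18234 and 14372 CPM across BCLAF1-depleted replicates 1 to 3, against 16457, 16551 and 15082 CPM in control replicates 1 to 3. The groups overlapped, and both the highest and the lowest library were BCLAF1-depleted. The means were 16145 ± 1950 CPM in BCLAF1-depleted cells and 16030 ± 823 CPM in controls (SD, n = 3). The log2 fold change was 0.01 ± 0.20 (edgeR adjusted p = 0.972), with a 95% interval of -0.42 to 0.45, that is 0.745-fold to 1.36-fold. Its sign turned with library totals alone (-0.21), the same value as the median of all genes under that scaling.

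KRT18, the partner of KRT8, had 16151, 20747 and 17838 CPM across BCLAF1-depleted replicates 1 to 3, against 15428, 14989 and 15021 CPM in control replicates 1 to 3. Every BCLAF1-depleted library lay above every control, replicate 1 by the smallest margin and replicate 2 by the largest. Such a gap was common, since 25.3% of tested genes had all BCLAF1-depleted libraries above all controls. The log2 fold change of 0.27 ± 0.20 did not pass (edgeR adjusted p = 0.304), with a 95% interval of -0.17 to 0.70. On the deposited FPKM values the groups overlapped, at 7273, 8060 and 6132 FPKM in BCLAF1-depleted replicates 1 to 3, against 7390, 7175 and 7272 FPKM in control replicates 1 to 3. The log2 difference there was -0.03.

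Within the pair, KRT8 per KRT18 was lower in every BCLAF1-depleted library than in any control. A ratio taken within a library does not depend on how libraries are scaled, but it does depend on trends over transcript length and GC content. There were 0.980, 0.879 and 0.806 KRT8 counts per KRT18 count in BCLAF1-depleted replicates 1 to 3, against 1.07, 1.10 and 1.00 in control replicates 1 to 3. The groups did not overlap, and BCLAF1-depleted replicate 1 lay closest to the controls. The mean log2 ratio was -0.18 ± 0.14 in BCLAF1-depleted cells and 0.08 ± 0.07 in controls (SD, n = 3), a difference of -0.26, or 0.837-fold. The two-sided exact permutation test gave p = 0.1, the smallest p that 3 libraries against 3 allow, so this design cannot pass 0.05. FPKM divides each gene by a fixed length, so its difference (-0.26) was the same by construction and is no separate measure. With the trend of fold changes over length and GC content removed, an alternative added after the ratios were seen, it was -0.04. Length in that trend was that of all annotated exons of a gene merged, 6881 bases for KRT8 and 3218 for KRT18. It was not the length of the transcripts present in these cells, which was not measured. Summed over the 4 type II members and the 2 type I members, type II FPKM per type I FPKM was 1.11, 1.00 and 0.96 in BCLAF1-depleted replicates 1 to 3, against 1.18, 1.22 and 1.16 in control replicates 1 to 3. KRT8 and KRT18 make up most of both sums, so these values restate their ratio.

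**Figure D2:**
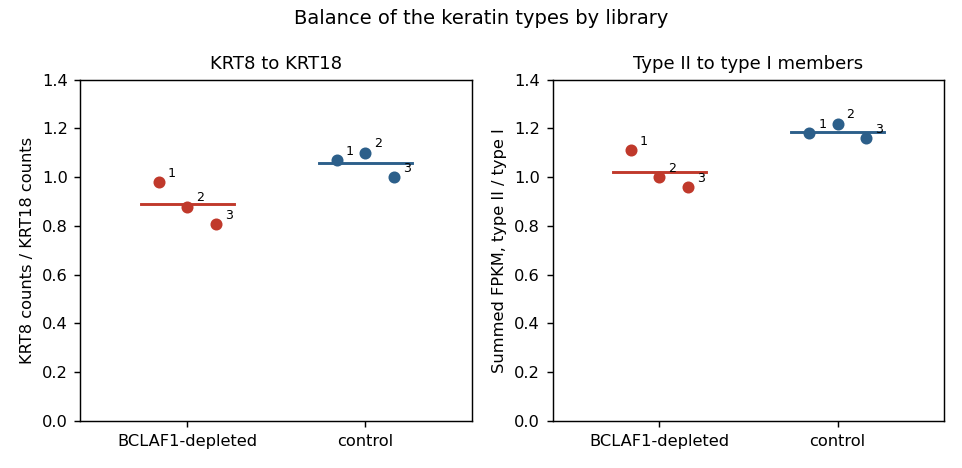
Left, KRT8 counts per KRT18 count; right, summed FPKM of the type II members (KRT7, KRT8, KRT80, KRT81) per summed FPKM of the type I members (KRT18, KRT19). Points are libraries with their replicate number and bars are group means (n = 3). In both panels every BCLAF1-depleted library lies below every control, with replicate 1 the nearest to them.

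KRT7, the glandular type II keratin widely used with other keratins to type carcinomas, had 2435, 2884 and 2701 CPM across BCLAF1-depleted replicates 1 to 3, against 2238, 2254 and 2401 CPM in control replicates 1 to 3. The groups did not overlap, but BCLAF1-depleted replicate 1 and control replicate 3 lay close together. The log2 fold change was 0.22 ± 0.16 and did not pass (edgeR adjusted p = 0.297, 95% interval -0.13 to 0.57). It was -0.01 with library totals alone and -0.08 on FPKM. Across the 6 libraries, KRT7 and KRT18 varied more alike than any other pair of members. The root-mean-square difference of their log2 CPM, centred on the control mean, was 0.07, whereas that between KRT8 and KRT18 was 0.20 and the greatest was 1.01, between KRT80 and KRT19.

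KRT81, the hair keratin, had 800, 1030 and 1010 CPM across BCLAF1-depleted replicates 1 to 3, against 796, 660 and 961 CPM in control replicates 1 to 3. The controls alone spanned almost the whole range, and the groups overlapped. The log2 fold change was 0.23 ± 0.18 and missed the threshold (edgeR adjusted p = 0.334, 95% interval -0.17 to 0.63). The value was 0.37 without control replicate 3 and 0.10 without control replicate 2. With the trend of fold changes over length (merged exons) and GC content removed it was -0.05. Per length, KRT81 stood at 375, 417 and 362 FPKM in BCLAF1-depleted replicates 1 to 3, against 397, 329 and 484 FPKM in control replicates 1 to 3. KRT86, with which it shares sequence, averaged 5.0 ± 0.56 CPM in BCLAF1-depleted cells and 4.19 ± 1.24 CPM in controls (SD, n = 3; log2 fold change 0.25 ± 0.21, edgeR adjusted p = 0.377).

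KRT80 was the only member with a negative fold change. It had 53.4, 36.2 and 44.7 CPM across BCLAF1-depleted replicates 1 to 3, against 54.3, 51.9 and 55.8 CPM in control replicates 1 to 3. Replicates 2 and 3 of the BCLAF1-depleted cells lay below all controls, and replicate 1 lay among them. The means were 44.8 ± 8.60 CPM in BCLAF1-depleted cells and 54.0 ± 1.94 CPM in controls (SD, n = 3). The log2 fold change of -0.27 ± 0.15 did not pass (edgeR adjusted p = 0.168, 95% interval -0.59 to 0.05). Without BCLAF1-depleted replicate 1 it passed (-0.44, edgeR adjusted p = 0.0116), as it did on log2(FPKM + 1) with limma (-0.53, adjusted p = 0.0431). LINC00592, a long non-coding RNA gene on the opposite strand, spans the whole of KRT80 and had at most 59 counts in any library.

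KRT19, the smallest keratin and a common marker of lung adenocarcinoma, was close to absent from these cells. It had 13, 22 and 27 counts in BCLAF1-depleted replicates 1 to 3, against 13, 15 and 10 counts in control replicates 1 to 3. This equals 0.371, 0.645 and 0.832 CPM in BCLAF1-depleted replicates, against 0.294, 0.338 and 0.208 CPM in controls, all above the counting floor. Every BCLAF1-depleted library was above every control, replicate 1 only narrowly. The log2 fold change was 1.13 ± 0.40 (edgeR adjusted p = 0.0495, 95% interval 0.24 to 2.02). The call rests on few reads and was lost in 12 of the 15 alternatives that gave a value, with adjusted p-values over the alternatives of 0.0153 to 0.167. Among these were all single libraries left out but BCLAF1-depleted replicate 1: without BCLAF1-depleted replicate 2 or 3 the adjusted p was 0.119 and 0.152, and without control replicates 1, 2 and 3 it was 0.125, 0.0944 and 0.167. There were 6572, 4470 and 3245 KRT7 counts per KRT19 count in BCLAF1-depleted replicates 1 to 3, against 7608, 6664 and 11550 in control replicates 1 to 3. The log2 difference was -0.87, with p = 0.1 in the exact permutation test, the smallest that 3 against 3 allow.

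**Figure D3:**
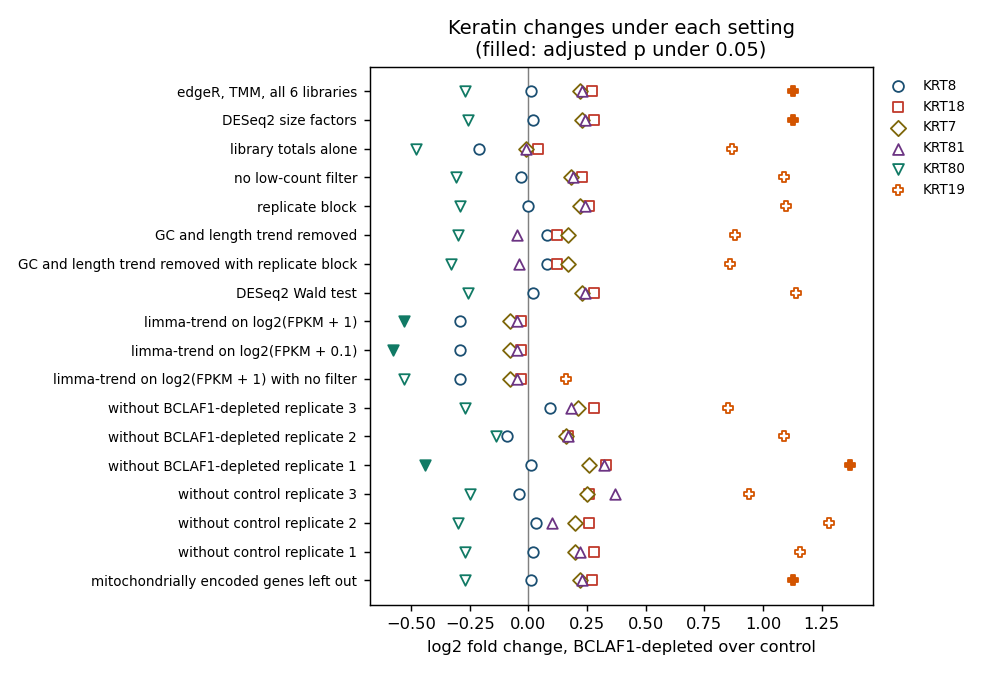
Log2 fold change of each member, BCLAF1-depleted over control, in the edgeR test of all 6 libraries (top row) and under each alternative. Filled symbols have an adjusted p under 0.05. KRT8, KRT18, KRT7 and KRT81 are filled in no row, KRT80 in 3 and KRT19 in 4.

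Genes that varied most like each member were sought among 10172 other genes averaging 5 CPM or more, by the same root-mean-square difference over the 6 libraries. For KRT8 these were the tRNA methyltransferase gene TRMT2A (0.0286) and RAN (0.0329), the GTPase of nuclear transport. For KRT18 they were ZNF500 (0.0259) and TEN1-CDK3 (0.0268), and for KRT7 they were SYMPK (0.0201), a scaffold of RNA 3′-end processing, and the splicing factor gene SRSF1 (0.0328). KRT81 was near to TRMT10B (0.0412), and KRT80 to ACVR1B (0.0258) and PDHX (0.0305). KRT19 was nearest to the zinc transporter gene SLC39A4 (0.0741) and the ribosomal protein gene RPL22 (0.12), among 10173 genes. The profiles of 4 members are not rare, since 299 genes lay within 0.1 of KRT8, 324 of KRT18, 377 of KRT7 and 197 of KRT80. Only 9 genes lay within 0.1 of KRT81, and 1 within 0.1 of KRT19.

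Among keratins outside the members, those that passed the test were all higher. Of 47 other keratin symbols in the table, 14 passed the filter, and of these 7 rose and 0 fell in the edgeR test, against 35.8% of all tested genes called. At an unadjusted p under 0.05, 9 were higher and 0 lower, and DESeq2's Wald test and limma on filtered FPKM also called 0 lower. KRT9 reached the filter through the BCLAF1-depleted libraries, where it was high, and without it 6 of 13 rose. KRT4, of wet stratified epithelia such as the oesophagus, had 17.9, 16.1 and 16.7 CPM across BCLAF1-depleted replicates 1 to 3, against 4.89, 5.57 and 5.63 CPM in control replicates 1 to 3 (log2 fold change 1.65 ± 0.13, edgeR adjusted p = 4.23e-05). KRT20, of gut epithelium and urothelium, averaged 5.32 ± 0.837 CPM in BCLAF1-depleted cells and 1.23 ± 0.0709 CPM in controls (2.11 ± 0.19, edgeR adjusted p = 7.82e-05). KRT16, of stressed epidermis, averaged 3.91 ± 0.529 CPM in BCLAF1-depleted cells and 0.909 ± 0.285 CPM in controls (2.10 ± 0.25, edgeR adjusted p = 0.000371). Both of the more abundant outside keratins, KRT10 and KRT15, named after their values were seen, were also called higher. KRT10, of differentiating epidermis, had 37.5, 41.7 and 32.1 FPKM across BCLAF1-depleted replicates 1 to 3, against 32.7, 33.0 and 32.3 FPKM in control replicates 1 to 3, above KRT80 in every library. The groups overlapped there, since BCLAF1-depleted replicate 3 lay below every control. In CPM the log2 fold change of KRT10 was 0.48 ± 0.13 (edgeR adjusted p = 0.0162). Its call was lost in 9 of the 17 alternatives. Among these were the omission of control replicates 1, 2 and 3 (edgeR adjusted p = 0.0776, 0.0751 and 0.0738). Others were library totals (log2 fold change 0.25) and removal of the length and GC trend (log2 fold change 0.22). KRT15, of basal epithelial cells, had 7.32 to 8.73 FPKM in BCLAF1-depleted cells, within the range of KRT80, and 5.85 to 6.10 FPKM in controls (0.72 ± 0.12 in CPM, edgeR adjusted p = 0.00241). All 5 keratinocyte markers (KRT5, KRT14, KRT1, KRT10 and TP63) were in the table, with a summed level of 93.4 to 119 CPM in BCLAF1-depleted libraries and 74.3 to 76.0 CPM in controls. KRT10 made up most of that sum, KRT1 and KRT14 stayed under 1 CPM, and the part of this in the rises above was not tested. The 33 keratins under the filter reached at most 24 counts in any library (KRT14).

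**Figure D4:**
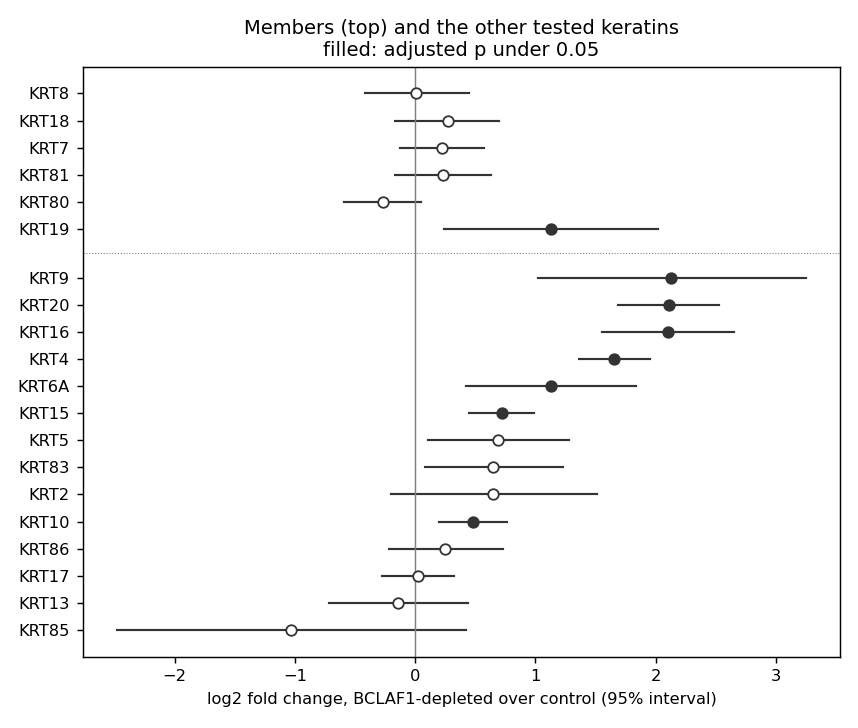
Log2 fold change, BCLAF1-depleted over control, with its 95% interval for the 6 members (top) and the 14 other keratins that passed the filter on low counts. Filled points have an edgeR adjusted p under 0.05. The intervals of KRT8, KRT18, KRT7, KRT81 and KRT80 all include 0, and KRT20, KRT16 and KRT4 lie at 2.11, 2.10 and 1.65.

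Junctions and cross-linkers that hold the keratin network changed in both directions. Of 8 tested desmosomal genes of 14, 4 fell and 2 rose, with a median log2 fold change of -0.39, where 18.0% of all tested genes were lower and 17.8% higher. DSP, which codes for desmoplakin, the protein that ties keratins to desmosomes, had 268, 176 and 275 CPM across BCLAF1-depleted replicates 1 to 3, against 499, 473 and 472 CPM in control replicates 1 to 3 (-1.01 ± 0.18, edgeR adjusted p = 0.00303). The desmosomal cadherin gene DSG2 fell by a like amount (-1.04 ± 0.20, edgeR adjusted p = 0.00437). Without BCLAF1-depleted replicate 2, or without any 1 of the controls, 2 desmosomal genes were lower. Without any 1 of the controls, 1 was higher. Of 16 keratin-binding genes, 4 rose and 0 fell in the edgeR test (median 0.28), so 25% were called, against 35.8% of all tested genes. At an unadjusted p under 0.05, 1 was lower, and DESeq2's Wald test called 1 lower and limma on log2(FPKM + 1) called 2. Those that rose included SFN, which codes for the 14-3-3 protein sigma (0.92 ± 0.15, edgeR adjusted p = 0.00217), and PPL, which codes for periplakin (0.80 ± 0.12, edgeR adjusted p = 0.00132). Leaving out 1 library gave 2 to 6 higher genes in that list, 2 without control replicate 2 or 3, and 0 to 2 lower, 2 without BCLAF1-depleted replicate 1.

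Of other intermediate filament genes 33.3% were called, of factors of keratin gene control 52.9% and of simple epithelial markers 37.5%, against 35.8% of all tested genes. The first and last of these shares are near that background. Of 12 tested filament genes of 14, 2 fell, the syncoilin gene SYNC (-1.69 ± 0.17, edgeR adjusted p = 0.00013) and the nuclear lamin gene LMNB2 (-0.65 ± 0.12, edgeR adjusted p = 0.00367), and 2 rose, with 0 to 3 rising as single libraries were left out, 0 of them without BCLAF1-depleted replicate 3 or any 1 of the controls and 1 without BCLAF1-depleted replicate 2. Without BCLAF1-depleted replicate 1, 4 fell. NEFM, a neurofilament gene, reached the filter through the BCLAF1-depleted libraries, and without it 1 of 11 rose. Of 17 tested regulators of 21, 5 fell and 4 rose, or 3 of 16 without GRHL3, which did not reach the filter in every control. The zinc-finger factor gene KLF6 rose (1.16 ± 0.14, edgeR adjusted p = 0.000371) and SP3 fell (-0.98 ± 0.23, edgeR adjusted p = 0.00975), while without control replicates 1 to 3 the lower ones numbered 2, 2 and 3, and without control replicate 1 there were 2 higher. Of 16 tested simple epithelial markers of 17, 3 rose and 3 fell (median -0.04), CLDN1 rising (1.14 ± 0.13, edgeR adjusted p = 0.000375) and CD24 falling (-0.88 ± 0.14, edgeR adjusted p = 0.00178). Without control replicate 2 or 3, 1 of these markers was lower.

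**Figure D5:**
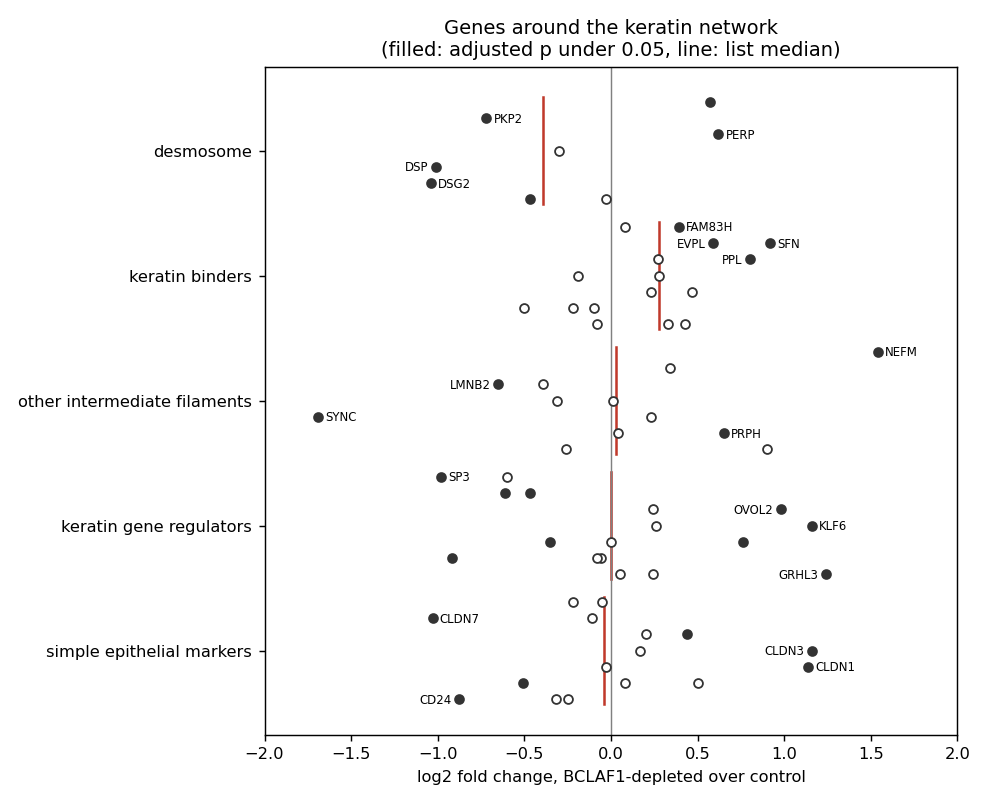
Log2 fold change, BCLAF1-depleted over control, of every tested gene in 5 lists around the keratin network. Filled points have an edgeR adjusted p under 0.05 and the red line is the list median. Desmosomal genes have a median of -0.39 and keratin binders one of 0.28.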

How the data were processed

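Directional RNA-seq libraries were made from poly(A)-selected RNA of A549 cells, per the labels' protocols. The submitters' processing notes name bcl2fastq, TopHat2, edgeR and GRCh38. The sources used here do not give the counting tool, annotation release or strand setting. The authors deposited read counts per gene (29122 rows) and FPKM values (28878 rows). All 3 BCLAF1-depleted and 3 control libraries were used.

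Counts were fitted with edgeR 4.0.16 in R 4.3.3 by its quasi-likelihood test, with TMM scaling, filterByExpr (minimum count 10, minimum total 15) and Benjamini-Hochberg adjustment over 15907 genes at 0.05. The procedure was tested on simulated data. Log2 CPM used a prior count of 2. Ratios within libraries were compared by exact permutation (SciPy 1.17.1). Alternatives, 17 in all, used DESeq2 1.42.0, limma 3.58.1 on log2(FPKM + pseudocount) and mgcv 1.9.3, and the omission of each library. Gene spans and sequences came from GENCODE release 29, matched by gene ID for 28362 rows. The length and GC trend used the merged annotated exons of each gene for length and its longest transcript for GC content. Binomial intervals and floors cover counting error only. Intervals of log2 fold changes come from the edgeR fit and include the variation among these libraries.

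Members and lists were chosen with earlier results of these data known. Besides the members, the rule named for each list the 4 called genes with the greatest absolute log2 fold change, and the text describes part of these. Genes nearest to each member were the 2 with the smallest root-mean-square difference. Expression of keratin pseudogenes was not analysed here, and 1 of these nearest genes and the type II sequences are not reported here.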

Additional observations from a re-analysis of the deposited data

How the results depend on the processing

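KRT8, KRT18, KRT7 and KRT81 passed the threshold in none of the 17 alternatives, and their signs were not stable. KRT8 turned to -0.21 with library totals, -0.03 with no filter and -0.29 on all 3 FPKM scales. KRT18 turned to -0.03, KRT7 to -0.08 and KRT81 to -0.05 on the FPKM scales, as did KRT86 (-0.01). With library totals KRT7 and KRT81 were at -0.01, and KRT81 was at -0.05 with the GC and length trend removed. KRT80 passed on log2(FPKM + 1) (-0.53) and log2(FPKM + 0.1) (-0.58). KRT19 lost its call with library totals (0.87), no filter (1.09), the GC and length trend removed (0.88), the DESeq2 Wald test (1.14) and unfiltered FPKM (0.16). The filtered FPKM alternatives gave no value for KRT19. Leaving out 1 library gave -0.09 to 0.09 for KRT8, 0.17 to 0.33 for KRT18, 0.16 to 0.26 for KRT7, 0.10 to 0.37 for KRT81, -0.44 to -0.14 for KRT80 and 0.85 to 1.37 for KRT19. The log2 ratio of KRT8 to KRT18 differed by -0.33 to -0.19, and that of KRT7 to KRT19 by -1.14 to -0.63. Removal of the trend over GC and length, for ratios an alternative added after seeing the data, gave -0.04 and -0.71. Leaving out mitochondrially encoded genes, an alternative chosen after seeing the data, ended no call of a member. The cause of these changes was not tested.

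The labels do not say if the replicate numbers pair the libraries, and the correlations did not settle it. After removing group means, same-numbered libraries correlated weakly, at 0.036, 0.047 and 0.119. Libraries of unlike number correlated at -0.076 to 0.033, and each BCLAF1-depleted library correlated best with its own number. With the replicate block KRT19 was at 1.10 (edgeR adjusted p = 0.0592), and with the block and the GC and length trend removed it was at 0.86 and KRT81 at -0.04, and the log2 ratio of KRT8 to KRT18 differed by -0.04. KRT83 passed with the block (0.72, edgeR adjusted p = 0.00731) but not with the block and the trend removed (adjusted p = 0.0723). Either block fit called 1 keratin binder lower, and the second also called 1 other keratin lower.

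Over all genes, 1283 were higher with library totals, and 919, 885 and 573 on log2(FPKM + 1), log2(FPKM + 0.1) and unfiltered FPKM. Leaving out 1 library gave 1383 to 3741 higher and 1549 to 4195 lower. On those FPKM scales other keratins had 4, 4 and 3 higher, keratin binders 2, 2 and 1, regulators 2, 2 and 1, and desmosomal genes and other intermediate filaments 0 each. With library totals desmosomal genes had 0 higher, binders 2, other filaments 1 and regulators 2. With the GC and length trend removed other filaments had 1 higher. Epithelial markers had 0 higher on unfiltered FPKM. Among lower genes, other keratins had 1 with no filter. Binders had 2 on log2(FPKM + 1), and 1 with library totals, no filter, the GC and length trend removed, the DESeq2 Wald test, log2(FPKM + 0.1) or mitochondrial genes left out. Other filaments had 5 with library totals and on both filtered FPKM scales, epithelial markers 5 on the latter, and regulators 3 on unfiltered FPKM. Leaving out 1 library gave 5 to 9 higher other keratins. Desmosomal genes had 1 to 2 higher and 2 to 5 lower, binders 2 to 6 and 0 to 2, other filaments 0 to 3 and 2 to 4, regulators 2 to 4 and 2 to 5, and epithelial markers 2 to 4 and 1 to 4.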

Other observations

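Among the controls, replicate 3 had the highest values of 4 hair keratins, a pattern noticed after their values were seen. In CPM, control replicate 3 was also the highest of all 6 libraries only for KRT85. On the deposited FPKM values it was so for all 4, at 484 FPKM for KRT81, 5.58 for KRT83, 2.41 for KRT86 and 0.67 for KRT85. KRT85 had 0.342, 0.264 and 0.863 CPM across BCLAF1-depleted replicates 1 to 3, against 0.837, 0.248 and 1.87 CPM in control replicates 1 to 3. KRT83 had 9.41, 12.2 and 12.2 CPM across BCLAF1-depleted replicates 1 to 3, against 5.32, 5.41 and 10.7 CPM in control replicates 1 to 3. KRT86 had 4.56, 5.63 and 4.81 CPM in BCLAF1-depleted replicates, against 3.58, 3.38 and 5.61 CPM in controls. Among controls KRT81 was also highest in replicate 3. KRT83 had a log2 fold change of 0.65 (edgeR adjusted p = 0.0726), and of 1.07 without control replicate 3 (edgeR adjusted p = 0.00885). It also passed with no filter (adjusted p = 0.00271) and in DESeq2's Wald test (adjusted p = 0.0364). KRT81, KRT83 and KRT86 are near copies, but of these only KRT81 and KRT86 shared any 100-base window of coding sequence. The sequence of KRT85 was not compared. The part of shared sequence in the pattern was not tested.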
